A study of Mus musculus with 12 samples.

Results

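Immediate early genes are the genes that a cell switches on first, within minutes of a growth factor, cytokine, injury or stress signal and without new protein synthesis. The group described here was 10 genes of mouse colon, found by their symbols in the table of read counts: Fos, Fosb, Jun, Junb, Egr1, Egr2, Atf3, Ier2, Ier3 and Dusp1. They were 10 of the 18514 genes in the table, and all 10 passed the filter on low counts that left 15484 genes for testing. RNA was sequenced from the colon, distal cecum to rectum, of 12 male C57BL/6 mice bought at 4 weeks of age, with 1 library per mouse and 3 mice in each of 4 groups. Ctrl mice drank ordinary water and did not swim, and Ctrl_Swim mice drank ordinary water and swam. Model mice received azoxymethane (AOM), a carcinogen that acts on the colon, as a single injection followed by cycles of dextran sulfate sodium (DSS), which injures the colonic lining, in the drinking water, and they did not swim. Model_Swim mice received the same AOM/DSS course and swam from before the injection to the end of the study. Mice that did not swim were placed in shallow water instead. AOM/DSS raises inflammation-driven tumours, which the authors found mostly in the colorectum and in a smaller share of the mice that swam. A library can therefore mix tumour, inflamed and remaining tissue, and need not hold tumour.

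Most of these genes are reached by the mitogen-activated protein (MAP) kinases, which phosphorylate transcription factors already bound at their promoters, among them the serum response factor complex and the cyclic AMP response element binding protein. Fos and Fosb proteins pair with Jun and Junb to form AP-1, Egr1 and Egr2 are zinc finger factors, and Atf3 is a stress-induced factor of the same leucine zipper class. Dusp1 removes phosphate from MAP kinases and so limits the signal that induced it. In the intestine AP-1 factors are known for their part in epithelial renewal, wound repair and tumour growth.

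Each library held 17256953 to 19451055 counts. On that depth 3 counts corresponded to 0.153 to 0.172 normalised CPM, the count scaled to library size, and every library lay above that value for each of the 10 genes. Values below are CPM scaled by the trimmed mean of M values unless FPKM, the same kind of rate per kilobase of transcript, is named. Pancreatic genes stood out in a pair of libraries: 18 genes of pancreatic acinar cells summed to 54648 CPM in Model 1 and 26616 CPM in Model 3, against 102 to 453 CPM in the other libraries. Markers of colonocytes, goblet cells and smooth muscle summed to at least 7638, 12625 and 6080 CPM in each library. The tissue is bulk, so more RNA per cell and more cells of an expressing type cannot be told apart, and p-values measure the spread between single mice.

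AOM/DSS raised the group in mice that did not swim. In Model against Ctrl, 4 of the 10 genes rose by more than 2-fold at an adjusted p under 0.05 and none fell, where 6.21% of all genes tested rose by that rule and 1.22% fell. These were Fos, Fosb, Egr1 and Dusp1. By the adjusted p alone 7 of the 10 rose, adding Jun, Atf3 and Ier3, against 16.5% of all genes. The values of 7 genes lay higher in every Model mouse than in any Ctrl mouse, against 21.0% of all genes, and the median log2 fold change was 1.01 for the 10 genes and 0.01 for all genes tested.

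**Figure D1:**
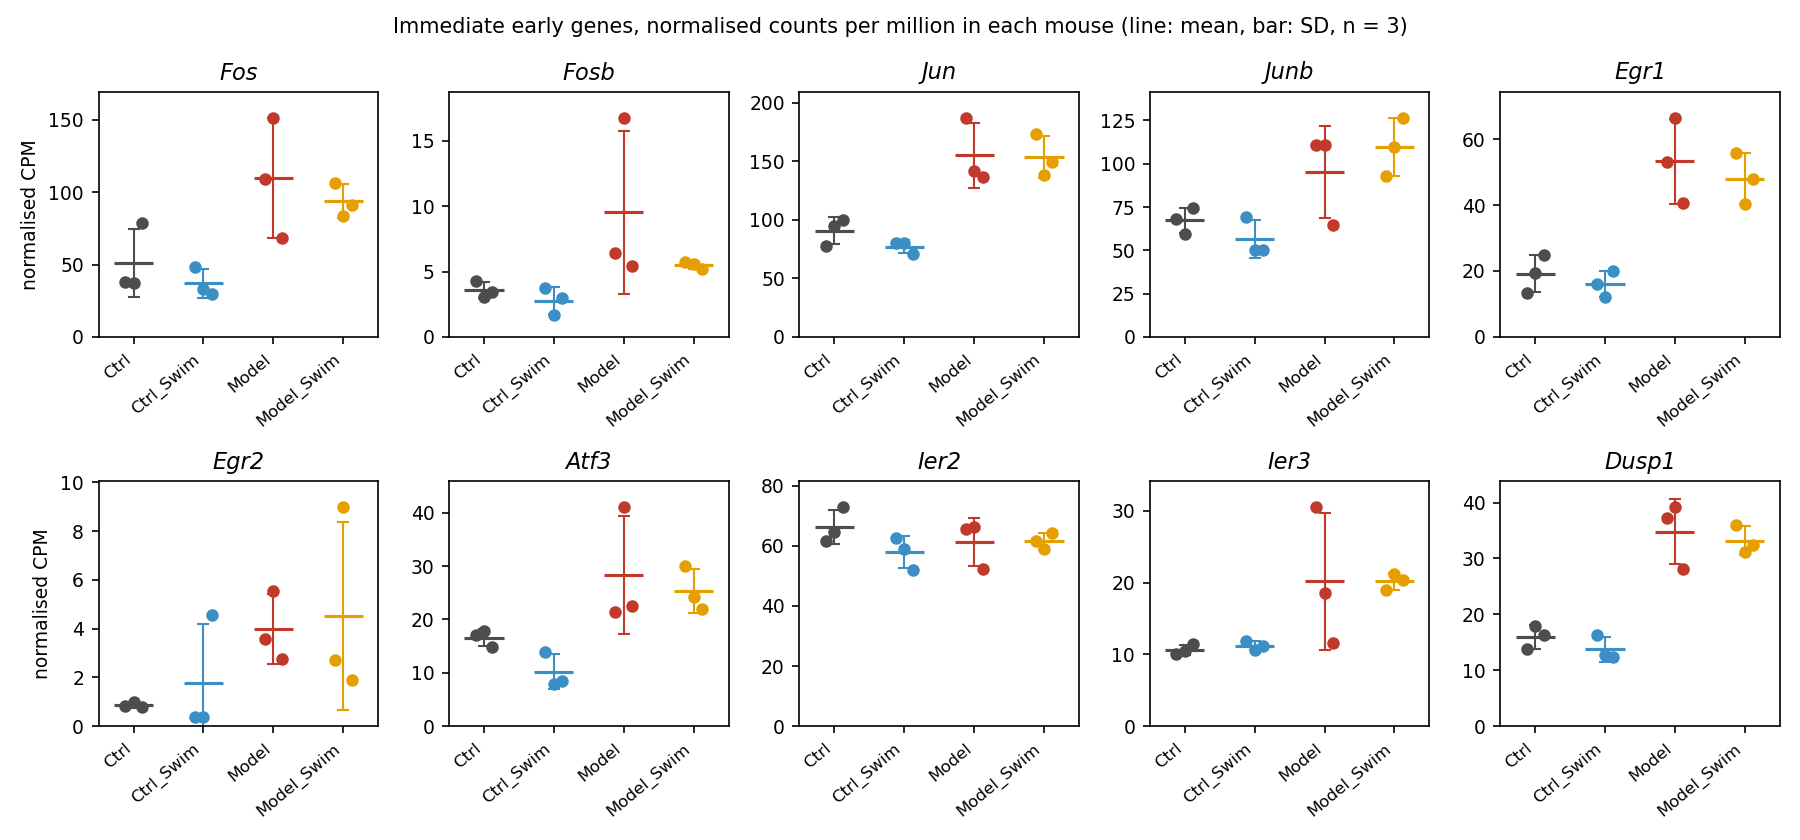
Normalised CPM (vertical axis, from 0) of each of the 10 genes in each mouse (points), with the mean (line) and SD (bar) of each group of 3. Fos, Egr1 and Dusp1 sit higher in both groups given AOM/DSS, whether or not the mice swam, and Ier2 sits at 52.1 to 72.8 CPM in all 12 mice.

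Fos, the founding member of its family, read 37.7, 37.4 and 78.6 CPM in Ctrl 1, 2 and 3 and 109, 151 and 68.2 CPM in Model 1, 2 and 3. Ctrl 3 therefore lay above Model 3, and the groups overlapped. Ctrl averaged 51.2 ± 23.7 CPM and Model 109.5 ± 41.5 CPM (SD over 3 mice each), a log2 fold change of 1.10 ± 0.33 (SE, edgeR quasi-likelihood test, adjusted p = 0.0279). Without Ctrl 1, Ctrl 2 or Model 2 the adjusted p for Fos lay between 0.0940 and 0.102, so that call rested on those libraries, and without Ctrl 2 the count of genes called fell to 2.

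Fosb, a closely related partner of the Jun proteins, read 4.25, 3.05 and 3.41 CPM in Ctrl and 6.43, 16.7 and 5.45 CPM in Model. All 3 Model mice were above all 3 Ctrl mice, with Model 2 far above the rest. The log2 fold change of Fosb was 1.42 ± 0.41 (SE, edgeR adjusted p = 0.0223), and it lost its call without Ctrl 2, Ctrl 3 or Model 2 (adjusted p from 0.0686 to 0.0894). Without Model 2 its log2 fold change was 0.76. In a fit of the Ctrl and Model mice alone the adjusted p was 0.0772 for Fos and 0.0591 for Fosb, and neither was called.

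The 250 bases before a RefSeq start of Fos and of Fosb are printed to show the promoter letters of both relatives. They are read 5′ to 3′ on the gene's own strand. Capitals mark TGACGT, the core of the cyclic AMP response element read on either strand, and TATAAA, also read on either strand.
Fos, GRCm38.p6 chr12:85473640-85473889, plus strand: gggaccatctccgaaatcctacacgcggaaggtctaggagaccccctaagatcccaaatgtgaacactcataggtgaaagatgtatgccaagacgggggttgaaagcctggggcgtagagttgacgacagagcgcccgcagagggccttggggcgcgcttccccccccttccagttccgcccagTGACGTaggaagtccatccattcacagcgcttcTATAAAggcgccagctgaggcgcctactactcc
Fosb, GRCm38.p6 chr7:19310046-19310295, minus strand: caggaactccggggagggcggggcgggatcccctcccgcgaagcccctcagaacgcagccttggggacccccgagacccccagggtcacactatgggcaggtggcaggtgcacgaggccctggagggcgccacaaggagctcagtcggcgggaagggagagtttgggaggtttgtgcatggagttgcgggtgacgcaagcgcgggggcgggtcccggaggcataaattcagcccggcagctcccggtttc
Fos held both motifs, with TGACGT beginning 66 bases and TATAAA beginning 33 bases before the start. The Fosb window held neither spelling. The RefSeq gene entry of Fosb reaches to base 19310118, within this window, so the start used for Fosb lies downstream of that end.

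The Jun family genes differed by less than 2-fold. Jun, the main AP-1 partner of Fos, read 77.8, 94.5 and 99.9 CPM in Ctrl and 187, 142 and 137 CPM in Model. The groups did not overlap, and the log2 fold change of Jun was 0.77 ± 0.14 (SE, edgeR adjusted p = 0.00242), under the 2-fold rule. Junb, which can restrain Jun as well as replace it, read 68.0, 59.6 and 74.2 CPM in Ctrl and 111, 111 and 64.5 CPM in Model. Model 3 lay among the Ctrl mice, and the log2 fold change of Junb was 0.50 ± 0.21 (adjusted p = 0.0811). The GENCODE annotation places the opposite-strand gene Prdx2 across part of Junb, and whether the counting used strand is not given in the sources used here.

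Egr1, which binds GC-rich promoters after growth factor signals, read 13.4, 19.5 and 24.7 CPM in Ctrl and 53.1, 66.4 and 40.6 CPM in Model. The groups stood apart, and Egr1 had a log2 fold change of 1.47 ± 0.25 (SE, edgeR adjusted p = 0.00214). Egr2, a relative best known from nerve myelination and lymphocytes, read 0.828, 0.981 and 0.770 CPM in Ctrl and 3.59, 5.56 and 2.76 CPM in Model. The groups did not overlap either, and its log2 fold change was 2.20 ± 0.90, but with counts of 14 to 18 in Ctrl and 48 to 102 in Model the adjusted p was 0.0814. Egr2 lay past the threshold in the same test when Ctrl_Swim 4 was left out (log2 fold change 2.22, edgeR adjusted p = 0.0145) and by DESeq2 with all mice (2.22, adjusted p = 0.0229). Ctrl_Swim 4 is a mouse of neither group whose Egr2 stood far above its own group. Of the 22 alternatives that held Egr2, 17 left it uncalled and 5 called it, with log2 fold changes from 0.39 to 2.98 over all 22. Among these, the fits that left out 1 mouse gave 1.90 to 2.41.

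Atf3, a repressor and activator induced by many stresses, read 17.1, 17.8 and 14.8 CPM in Ctrl and 21.4, 41.0 and 22.4 CPM in Model. All Model mice were higher, with Model 2 apart from the other 2, and the log2 fold change of Atf3 was 0.77 ± 0.27 (SE, edgeR adjusted p = 0.0459). The adjusted p of Atf3 did not pass without Ctrl 1, 2 or 3, Model 2, or Model_Swim 2 or 3 (0.0512 to 0.174), and without Model 2 its log2 fold change was 0.42. Without both libraries rich in acinar genes Atf3 stood at 1.29, a value that rests on Model 2, the highest of the 12 mice for Atf3, as the only Model mouse. Ier3, an early gene linked to cell survival, read 10.05, 10.5 and 11.4 CPM in Ctrl and 30.4, 18.6 and 11.5 CPM in Model. Model 3 was above Ctrl 3 by a margin of the last digit, and the log2 fold change of Ier3 was 0.92 ± 0.26 (adjusted p = 0.0206). Leaving out 1 mouse gave 0.52 to 1.22 for Ier3, past the 2-fold rule without Model 3 or Model 2, and without Ctrl 1, 2 or 3 the adjusted p was 0.0503 to 0.0651; with the acinar genes as covariate it was 0.158. Ier2, a small nuclear protein of the same induction class, read 61.6, 64.5 and 72.8 CPM in Ctrl and 65.6, 66.1 and 52.2 CPM in Model. Its groups overlapped, and its log2 fold change was -0.11 with a 95% interval from -0.34 to 0.12 (adjusted p = 0.427).

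Dusp1, the phosphatase of the group, gave the lowest adjusted p of the 10. It read 13.7, 17.9 and 16.2 CPM in Ctrl and 37.2, 39.1 and 28.1 CPM in Model. The groups were well apart, and the log2 fold change of Dusp1 was 1.13 ± 0.15 (SE, edgeR adjusted p = 0.000776). GENCODE places Ergic1, on the opposite strand, across Dusp1, where reads of the other strand would also count if strand was not used.

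The windows of Dusp1 and Atf3 follow because, with Fos and Egr2, they held TGACGT.
Dusp1, GRCm38.p6 chr17:26508473-26508722, minus strand: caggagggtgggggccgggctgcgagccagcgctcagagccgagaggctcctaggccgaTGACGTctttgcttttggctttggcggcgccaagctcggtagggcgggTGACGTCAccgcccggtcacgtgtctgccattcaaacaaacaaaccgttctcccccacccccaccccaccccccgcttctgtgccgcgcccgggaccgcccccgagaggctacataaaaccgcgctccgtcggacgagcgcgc
Atf3, GRCm38.p6 chr1:191183334-191183583, minus strand: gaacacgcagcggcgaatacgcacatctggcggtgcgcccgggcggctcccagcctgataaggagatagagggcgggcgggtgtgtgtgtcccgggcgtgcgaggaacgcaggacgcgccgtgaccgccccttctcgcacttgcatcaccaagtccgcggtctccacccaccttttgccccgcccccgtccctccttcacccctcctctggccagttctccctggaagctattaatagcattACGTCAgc
In Dusp1 the full palindrome TGACGTCA holds 2 overlapping matches, 1 on each strand, beside a further TGACGT upstream. In Atf3 the capitals read as TGACGT on the opposite strand, 8 bases before the start. RefSeq windows were at hand for 8 of the 10 genes, all but Egr1 and Ier2, and 4 of the 8 held TGACGT, against 7.29% of 26994 genes with a window of this length. Egr2 has 5 such windows from alternative starts, of which 3 held TGACGT and 4 held a CArG box, the serum response factor motif, which 1.63% of all genes held. TGANTCA, an AP-1 pattern that takes any base at N, was in none of the 8 and in 7.82% of all genes. Sites of other spellings would not be counted by it. GCGNGGGCG, the Egr motif, was in Fosb alone among the 8, beginning 50 bases before the start used for its window, and in 5.33% of all genes. These matches describe the letters of short windows and are not binding data.

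AOM/DSS also raised the group in mice that swam. Model_Swim against Ctrl_Swim shares no mouse with the comparison above, but both came from the same fit with a shared estimate of the spread. In Model_Swim against Ctrl_Swim, 4 of the 10 genes rose by the same rule and none fell, against 0.924% of all genes rising and 0.0775% falling. These were Fos, Egr1, Atf3 and Dusp1, so that Fos, Egr1 and Dusp1 were called with and without swimming. By the adjusted p alone 6 of the 10 rose, adding Jun and Junb, against 3.49% of all genes. All 3 Model_Swim mice exceeded all 3 Ctrl_Swim mice for 8 genes, against 15.9% of all genes, and the median log2 fold change was 1.13 for the 10 genes and -0.01 for all genes.

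Fos read 48.5, 33.1 and 29.8 CPM in Ctrl_Swim 2, 3 and 4 and 107, 83.8 and 90.9 CPM in Model_Swim 1, 2 and 3. These groups stood apart, and the log2 fold change of Fos was 1.34 ± 0.34 (SE, edgeR adjusted p = 0.0456), a call lost in 8 of the 12 fits that left out 1 mouse (Ctrl 1 or 2, or any mouse of the 2 groups), with adjusted p from 0.0580 to 0.142. Without Model_Swim 1 the count of genes called fell to 2. Fosb read 3.73, 1.65 and 2.96 CPM against 5.72, 5.55 and 5.20 CPM, without overlap, at a log2 fold change of 0.98 ± 0.41 and an adjusted p of 0.191.

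Jun and Junb separated fully in the swimmers. Jun read 80.3, 80.2 and 70.8 CPM in Ctrl_Swim and 173, 139 and 149 CPM in Model_Swim, a log2 fold change of 1.00 ± 0.14 that lay just under the 2-fold limit (SE, edgeR adjusted p = 0.00468) and just over it by DESeq2. Junb read 69.4, 50.3 and 50.1 CPM against 93.1, 109 and 126 CPM, a log2 fold change of 0.95 ± 0.21 (edgeR adjusted p = 0.0289). The adjusted p of Junb lay between 0.0507 and 0.102 without Ctrl 1, Ctrl_Swim 3 or 4, or any Model_Swim mouse. Both genes were therefore higher in every mouse given AOM/DSS that swam than in any swimmer that was not.

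Egr1 read 16.1, 12.2 and 20.1 CPM in Ctrl_Swim and 55.9, 40.3 and 47.8 CPM in Model_Swim, a log2 fold change of 1.57 ± 0.25 (SE, edgeR adjusted p = 0.00938). Egr2 read 0.384, 0.372 and 4.55 CPM in Ctrl_Swim and 2.70, 8.97 and 1.91 CPM in Model_Swim. The one high Ctrl_Swim mouse, Ctrl_Swim 4 with 89 counts against 7 in each of the other 2, lay among the Model_Swim mice, and the log2 fold change of Egr2 was 1.35 ± 0.85 (adjusted p = 0.388). Without Ctrl_Swim 4 it was 3.56 (edgeR adjusted p = 0.0336). That library also held 854 CPM of 14 squamous epithelial genes, the lining of the anal canal, against 9.68 and 105 CPM in the other Ctrl_Swim mice. The part of this in the Egr2 value was not tested.

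Atf3 read 13.9, 7.98 and 8.54 CPM in Ctrl_Swim and 29.9, 24.2 and 21.9 CPM in Model_Swim, apart in every mouse, with a log2 fold change of 1.32 ± 0.27 (SE, edgeR adjusted p = 0.0243). Leaving out any Model_Swim mouse, Ctrl_Swim 3 or Ctrl_Swim 4 took the adjusted p of Atf3 to between 0.0600 and 0.0841. Ier3 read 11.8, 10.5 and 11.2 CPM against 18.9, 21.2 and 20.4 CPM, apart as well, at a log2 fold change of 0.85 ± 0.26 and an adjusted p of 0.0845. Ier2 read 62.7, 58.9 and 52.1 CPM against 61.5, 59.0 and 64.4 CPM and overlapped, at a log2 fold change of 0.09 with a 95% interval from -0.14 to 0.32.

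Dusp1 was again the gene with the lowest adjusted p. It read 16.3, 12.7 and 12.3 CPM in Ctrl_Swim and 36.0, 31.2 and 32.3 CPM in Model_Swim, and its log2 fold change was 1.27 ± 0.15 (SE, edgeR adjusted p = 0.00342). Dusp1 kept its call in both AOM/DSS comparisons under each of the alternatives described in the closing section.

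**Figure D2:**
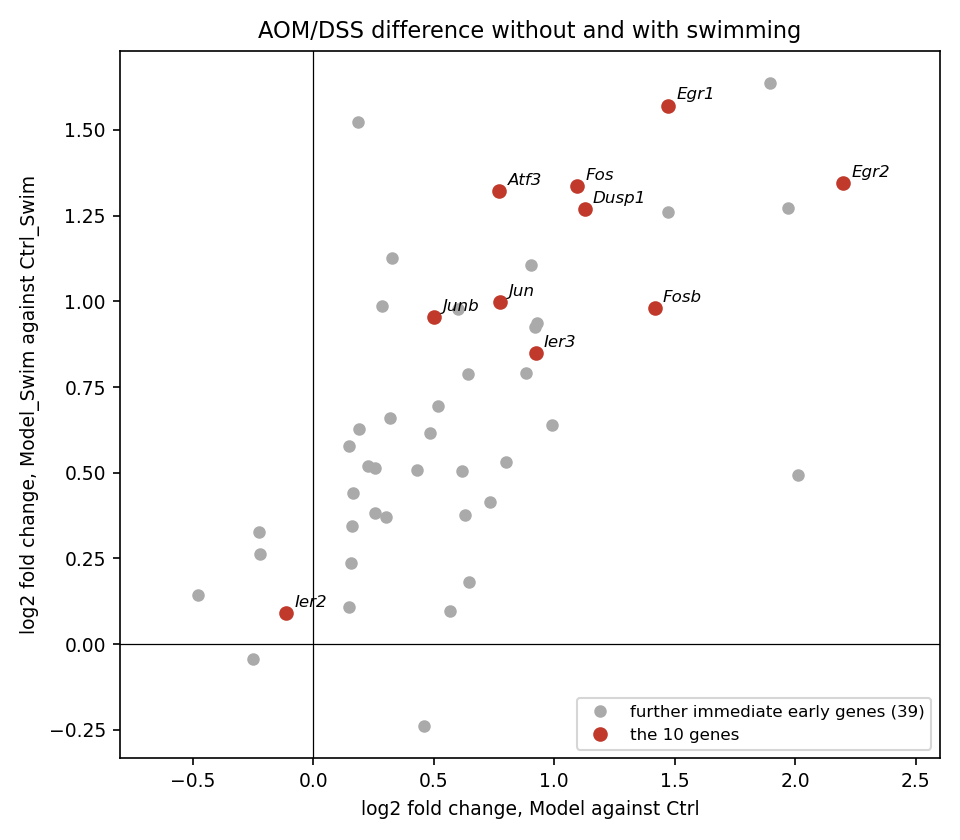
Log2 fold change of each gene in Model against Ctrl (horizontal axis) and in Model_Swim against Ctrl_Swim (vertical axis), for the 10 genes (red, named) and 39 further immediate early genes (grey). Of the 10 genes, 9 lie above 0 on both axes and Ier2 lies at -0.11 and 0.09. Of the further genes, 34 lie above 0 on both.

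Swimming did not move the group detectably in mice given AOM/DSS. In Model_Swim against Model, 0 of the 10 genes passed the edgeR test by either rule and 0 had an unadjusted p under 0.05, the values of all 10 overlapped between the groups, and DESeq2 also called 0. Across all genes 0.0710% (11 genes) were called, 2102 had an unadjusted p under 0.05, and 16.9% did not overlap. With Model 1 and Model 3 left out, an alternative added after seeing the data, Fosb was called lower (log2 fold change -1.59, edgeR adjusted p = 0.0276). Model 2 is then the only Model mouse, is the highest of the 12 for Fosb, and is assumed to vary like mice of the other groups. The log2 fold changes of the 10 ran from -0.80 to 0.20 with a median of -0.04.

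The 95% intervals say how large a difference these mice could still hide, given the fitted spread between mice. They do not cover the division by pancreatic reads in the closing section, which separates Model from Model_Swim. For Dusp1 the log2 fold change was -0.07 with an interval from -0.39 to 0.26, and for Jun it was -0.01 with an interval from -0.31 to 0.28. Egr1 stood at -0.15 (interval -0.69 to 0.38), Atf3 at -0.16 (-0.73 to 0.42) and Fos at -0.22 (-0.94 to 0.50). Fosb, with Model 2 at 16.7 CPM and the 3 Model_Swim mice between 5.20 and 5.72 CPM, stood at -0.80 (interval -1.67 to 0.08, edgeR adjusted p = 0.416), and at -0.13 without Model 2. Egr2 had the widest interval, from -1.62 to 1.997, within which a difference of more than 2-fold either way lies.

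**Figure D3:**
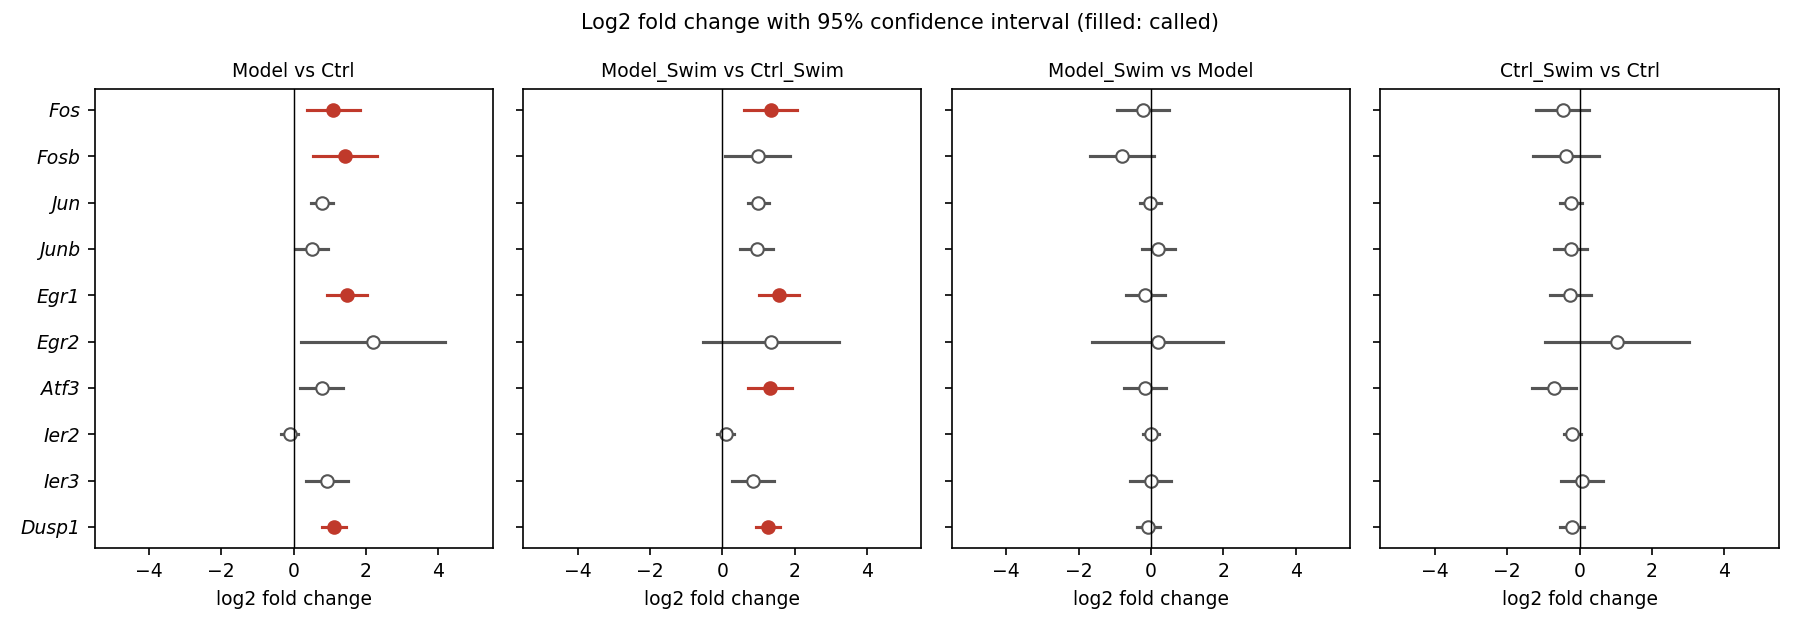
Log2 fold change (horizontal axis) of the 10 genes in each of 4 comparisons, with the 95% confidence interval as a bar and filled red points for genes that passed an adjusted p under 0.05 and 2-fold. Red points appear in the 2 AOM/DSS comparisons, 4 in each, and not in the 2 swimming comparisons.

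In mice that drank ordinary water, no difference with swimming passed the test for any of the 10 genes. In Ctrl_Swim against Ctrl, 0 of the 10 genes were called (0.168% of all genes, 26 genes) and 0 passed the adjusted p alone (0.969% of all genes), 1 had an unadjusted p under 0.05, and DESeq2 called 0. That gene was Atf3, at 7.98 to 13.9 CPM in Ctrl_Swim and 14.8 to 17.8 CPM in Ctrl, with a log2 fold change of -0.71 ± 0.27 and an edgeR adjusted p of 0.224. It was also the only one of the 10 whose groups did not overlap, where 27.4% of all genes did not. Of the 10 log2 fold changes 8 were below 0, with a median of -0.24. Both swimming comparisons share their mice with the AOM/DSS comparisons.

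The difference between the AOM/DSS effects with and without swimming was tested directly. The interaction passed for 0 of the 10 genes and for 0 of all genes (0%), with 0 of the 10 and 2947 of all genes at an unadjusted p under 0.05. DESeq2 called 206 genes and 0 of the 10. The smallest edgeR adjusted p among the 10 was 0.430, for Junb, whose AOM/DSS difference was larger with swimming by 0.45 on the log2 scale (95% interval -0.19 to 1.09). For Fos the interaction was 0.24 (interval -0.79 to 1.27).

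Levels can be set beside each other only per length, so FPKM values are used for the order of the genes. In Ctrl mice Ier2 was the most abundant message at a median of 40.4 FPKM, followed by Junb at 34.4, Jun at 28.3 and Fos at 17.04. Below them came Ier3 (9.21), Atf3 (8.04), Dusp1 (7.85) and Egr1 (6.04), then Fosb at 0.779 and Egr2 at 0.0814 FPKM. Ier2 and Junb overlapped in their range over the Ctrl mice, as did Jun and Fos, and each neighbour from Ier3 to Egr1. Fosb and Egr2 stood apart from the rest and from each other.

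With AOM/DSS that order changed at the top. In Model mice Junb led at a median of 60.9 FPKM, then Fos at 52.9, Jun at 46.2 and Ier2 at 43.7, and each of these 4 overlapped with the next. In Model_Swim mice the order was Junb (60.2), Jun (47.5), Fos (44.1) and Ier2 (40.5), again overlapping from each to the next. Fosb and Egr2 stayed last in all 4 groups, at medians of 1.37 to 1.59 FPKM and 0.286 to 0.384 FPKM in the groups given AOM/DSS.

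The make-up of the AP-1 messages differed between mice with and without AOM/DSS. Over the 7 Jun and Fos family genes, Jund, which is made in resting cells and is not one of the 10, held 42.9% to 49.9% of the summed FPKM in Ctrl and 45.8% to 50.5% in Ctrl_Swim. It held 29.7% to 36.4% in Model and 31.1% to 33.7% in Model_Swim. Fos held 8.11% to 14.9% in Ctrl, 8.30% to 10.9% in Ctrl_Swim, 14.3% to 23.2% in Model and 14.6% to 17.9% in Model_Swim. The shares of Fos and Jund sum with those of the other genes to a fixed total, so a fall of one share is in part the rise of another. The summed FPKM itself was 206 to 237 in Ctrl, 184 to 208 in Ctrl_Swim, 231 to 323 in Model and 277 to 288 in Model_Swim.

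**Figure D4:**
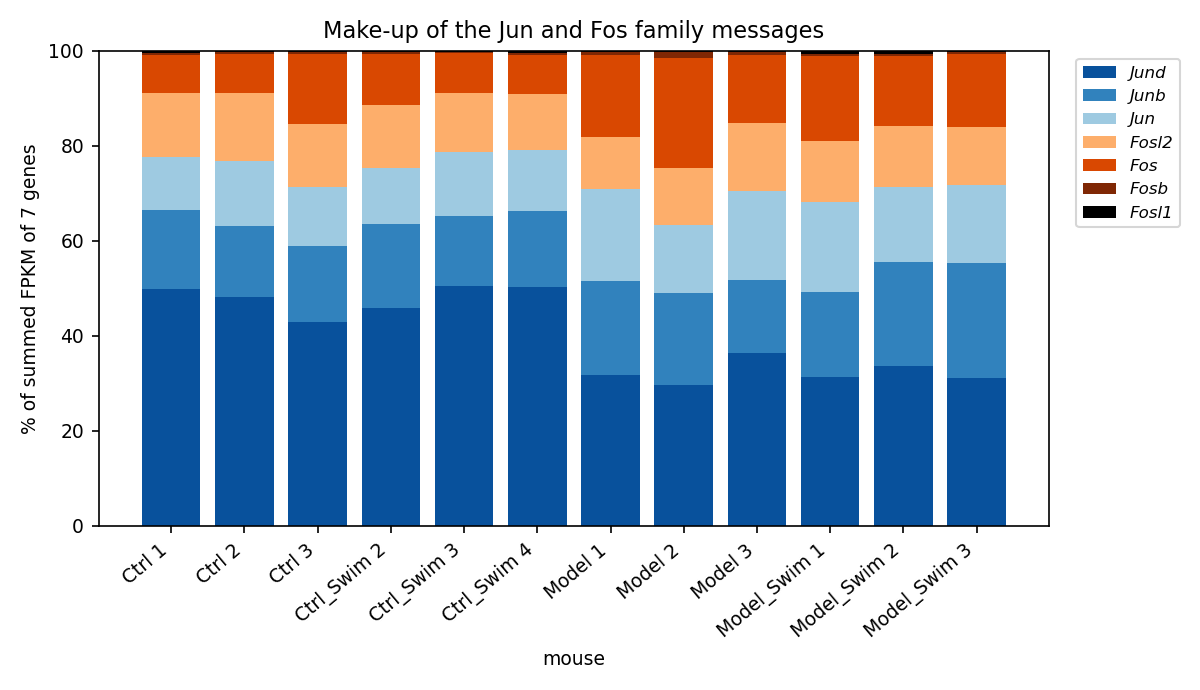
Share of the summed FPKM of 7 Jun and Fos family genes (vertical axis, percent, from 0 to 100) held by each gene in each of the 12 mice. Jund, the lowest block, takes 42.9% to 50.5% in the 6 mice without AOM/DSS and 29.7% to 36.4% in the 6 mice with it.

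Within groups the 10 genes tended to deviate together. For each gene the group mean was taken from log2 CPM, and the deviations of the 12 mice were correlated between genes. Of the 45 pairs 36 had an r above 0, with a median of 0.46. The highest was 0.87 for Fos and Ier2, although Ier2 did not rise with AOM/DSS, and the lowest was -0.39 for Egr2 and Ier2. Egr2 stood outside the pattern, with a mean r of -0.06 to the other genes, and Dusp1 had the highest mean r at 0.52. The 12 points share library and depth, and the values are a description.

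The mice differed in how they stood to their group. Model 3 lay below the mean of the Model group for all 10 genes and Model 2 lay above it for 8. Model 2 was the highest of all 12 mice for Fos, Fosb, Egr1, Atf3 and Dusp1, and Model 1 for Jun and Ier3. At the other end Ctrl_Swim 4 was lowest for 5 genes and Ctrl_Swim 3 for 4. Squamous epithelial genes summed to 1056, 2025 and 28.4 CPM in Model 1, 2 and 3, and the acinar genes to 54648, 219 and 26616 CPM. In the same 3 mice the 10 genes summed to 624, 657 and 432 CPM. Among Model_Swim mice the squamous sum was 171, 1137 and 1111 CPM while the 10 genes summed to 584, 522 and 560 CPM. The part of these tissues in the spread of the 10 genes was not tested.

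**Figure D5:**
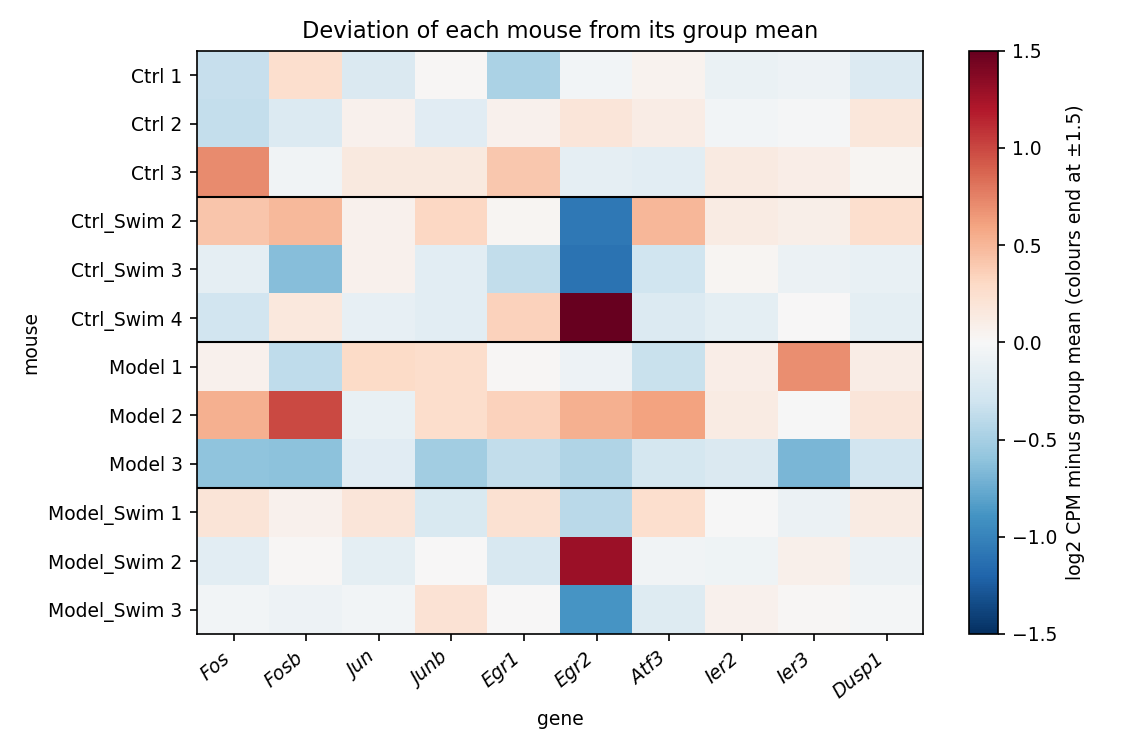
Log2 CPM minus the mean of the mouse's own group (colour, red above and blue below, ends at ±1.5) for the 10 genes (columns) in the 12 mice (rows). Model 3 is blue in all 10 columns, and the single Egr2 value of Ctrl_Swim 4 stands 2.17 above its group mean.

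Among other genes with a mean of at least 1 CPM, unnamed gene models and pseudogenes left out, those whose deviations were most like those of the 10 were Igsf23, Trib1, Cep70, Map3k12, Ripk4, Smpd2, Alkbh2 and Stambpl1, with a mean r to the 10 genes of 0.60 to 0.64 over 12 mice. Trib1 is itself an early-response gene and was in the list of further immediate early genes. The median over 15474 other genes was -0.03, and over the 39 further immediate early genes it was 0.27.

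The wider immediate early genes had a smaller median difference. Of 40 further immediate early genes 39 were tested, all but Egr4. In Model against Ctrl 4 of them rose past 2-fold and none fell (6.21% and 1.22% of all genes), and by the adjusted p alone 15 rose and 1, Jund, fell (16.5% and 16.2% of all genes). The median log2 fold change was 0.46. The 4 were Egr3 (log2 fold change 2.01, edgeR adjusted p = 0.0396), Arc (1.90, 0.0292), Cyr61, a matricellular protein (1.47, 0.00945), and Socs3, the feedback inhibitor of cytokine signalling (1.97, 0.00284).

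In Model_Swim against Ctrl_Swim 3 of the 39 rose past 2-fold (0.924% of all genes) and 11 by the adjusted p alone (3.49%), with a median log2 fold change of 0.52. They were Fosl1, a Fos relative often raised in invasive cells (1.52, edgeR adjusted p = 0.0444), Plk3 (1.13, 0.0288) and Nfkbiz, which modulates NF-kB target genes (1.11, 0.0230). None of the 39 was called in both AOM/DSS comparisons. None was called in Model_Swim against Model, and Gadd45g was the one gene called in Ctrl_Swim against Ctrl (-1.23, edgeR adjusted p = 0.0493).

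Genes of the feedback side were counted apart from the kinases that act upstream. Of 22 MAP kinase phosphatases and feedback inhibitors, 10 rose in Model against Ctrl by the adjusted p alone and none fell (16.5% and 16.2% of all genes), with Dusp2 (log2 fold change 2.01, edgeR adjusted p = 0.00259) and Dusp6 (1.24, 0.00218) past 2-fold. The 22 include Zfp36, Zfp36l1, Zfp36l2, Nab1, Nab2, Tob1 and Tob2, which are not MAP kinase phosphatases. Errfi1, Zfp36 and Zfp36l1 are also in the list of further immediate early genes, and Zfp36 and Zfp36l1 rose in both counts. In Model_Swim against Ctrl_Swim 7 of the 22 rose and none fell (3.49% and 1.69% of all genes), with Dusp10, a phosphatase of stress kinases, past 2-fold (1.16, 0.0111). Of 20 kinases and serum response factor genes that act upstream, 4 rose and 5 fell in Model against Ctrl by the adjusted p alone (16.5% and 16.2% of all genes), and 1 rose and none fell in Model_Swim against Ctrl_Swim. Among those that fell were Mapk3, Map2k1, Map2k2 and Rps6ka1, at log2 fold changes of -0.48, -0.47, -0.41 and -0.34. The one past 2-fold was Elk3, a serum response factor partner (1.23, 0.00106). These are messages, not kinase activity.

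Among 22 other AP-1, CREB/ATF and related leucine zipper genes (Maf and Cebp genes among them) none passed 2-fold in Model against Ctrl. By the adjusted p alone 3 rose and 2 fell (16.5% and 16.2% of all genes), at a median log2 fold change of 0.19. The 3 were Mafg (0.79), Cebpb (0.59) and Atf7 (0.31), and the 2 were Creb3l1 (-0.49) and Jund (-0.25). In Model_Swim against Ctrl_Swim 4 rose and 1 fell by the adjusted p alone (3.49% and 1.69% of all genes), with Fosl1 past 2-fold. Jund, Fosl1, Fosl2, Maff and Mafk are also in the list of further immediate early genes.

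Heat shock, glucocorticoid and clock genes can follow handling stress or time of day. Of 17 heat shock genes none passed 2-fold in Model against Ctrl, and 4 fell and none rose by the adjusted p alone (16.2% and 16.5% of all genes). Hspa1a and Hspa1b lay higher in every Model mouse than in any Ctrl mouse, as did 21.0% of all genes. Their log2 fold changes of 0.71 and 0.74 did not pass (edgeR adjusted p = 0.147 and 0.0780). In Model_Swim against Ctrl_Swim 2 of the 17 rose and none fell by the adjusted p alone (3.49% and 1.69% of all genes). Hspa1b was the 1 past 2-fold (1.35, edgeR adjusted p = 0.0306), where 0.924% of all genes rose. Of 12 glucocorticoid response genes, 4 rose and 3 fell in Model against Ctrl by the adjusted p alone (16.5% and 16.2% of all genes). Of these, Lcn2 (2.88, edgeR adjusted p = 0.00982) and Mt2 (1.37, 0.00132) rose and Fkbp5 fell (-1.09, 0.0159) past 2-fold. Ddit4 was among those that rose by the adjusted p alone (0.88, 0.00842). Lcn2 is also an inflammation gene of the gut lining.

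Clock genes were the one list with calls between Model_Swim and Model. Of 17, 6 were higher and 1 lower in Model_Swim, where 0.0710% of all genes were called. The higher were led by Ciart (log2 fold change 2.94, edgeR adjusted p = 0.0109), Dbp (2.26, 0.0134) and Tef (1.58, 0.000895), and Arntl was lower (-1.41, 0.0134). In Model against Ctrl, which shares the Model mice, 1 of the 17 was higher (Arntl, 1.33) and 5 were lower, among them Ciart (-2.65), Dbp (-2.28) and Tef (-1.51). Of all genes tested 6.21% were higher by that rule and 1.22% lower. In Ctrl_Swim against Ctrl 3 of the 17 were lower, where 0.168% of all genes were called. In Model_Swim against Ctrl_Swim 2 of the 17 were higher (0.924% of all genes). The part of sampling time in the values was not tested.

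Marker genes of other cells moved with AOM/DSS beside the 10 genes, counted here by the adjusted p alone. By that rule 16.5% of all genes rose in Model against Ctrl and 3.49% in Model_Swim against Ctrl_Swim. Of 9 macrophage markers 8 rose in Model by the adjusted p alone, with a summed level of 440 to 479 CPM against 270 to 292 CPM in Ctrl, and in Model_Swim they summed to 391 to 464 CPM against 237 to 289 CPM in Ctrl_Swim. Of 7 neutrophil markers 5 rose in Model (28.7 to 126 CPM against 10.6 to 13.9 CPM in Ctrl) and 2 in Model_Swim (27.7 to 175.5 CPM against 13.3 to 19.4 CPM in Ctrl_Swim). Of 7 fibroblast markers 6 rose in Model (2545 to 2807 CPM against 1479 to 1606 CPM) and 3 in Model_Swim (1959 to 2565 CPM against 1359 to 1616 CPM). Of 14 squamous genes 10 rose in Model (28.4 to 2025 CPM against 13.4 to 20.2 CPM) and none was called in Model_Swim (171 to 1137 CPM against 9.68 to 854 CPM).

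All 6 B cell markers rose in Model (124 to 144 CPM against 30.9 to 64.9 CPM in Ctrl), and in Model_Swim they summed to 41.2 to 65.3 CPM, with none called against Ctrl_Swim. Of 5 T cell markers 4 rose in Model (25.4 to 35.8 CPM against 11.8 to 14.4 CPM in Ctrl) and none in Model_Swim (16.8 to 23.1 CPM against 13.8 to 33.3 CPM in Ctrl_Swim). Of 11 colonocyte markers 6 fell in Model (16.2% of all genes), from 16790 to 18494 CPM in Ctrl to 7638 to 12775 CPM. In Model_Swim against Ctrl_Swim 1 fell (1.69% of all genes), at 15306 to 15527 CPM against 14681 to 20287 CPM. Goblet cell markers summed to 35592 to 45846 CPM in Ctrl and 12625 to 16736 CPM in Ctrl_Swim. In Model they summed to 13332 to 33360 CPM and in Model_Swim to 16104 to 29761 CPM. Of 6 goblet markers 2 fell in Model against Ctrl and 1 rose in Model_Swim against Ctrl_Swim. Of 7 endothelial markers 3 rose in Model against Ctrl and 0 in Model_Swim against Ctrl_Swim. No marker of any of these lists was at 0 in all libraries, and their part in the level of the 10 genes was not tested.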

How the data were processed

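The authors isolated colon RNA, built stranded mRNA libraries, sequenced them on an Illumina instrument, used Trimmomatic for trimming and HISAT2 for alignment to GRCm38.p6, and obtained gene counts from HTSeq-count and FPKM from Cufflinks; versions and the strand setting are not given in the sources used here. The deposited read counts are whole, unnormalised numbers per gene. The deposited FPKM values are scaled by the authors to transcript length and library depth.

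From the counts, edgeR 4.0.16 (R 4.3.3) was run over all 4 groups: filterByExpr (minimum count 10), trimmed mean of M values, one quasi-likelihood fit over 12 libraries, and Benjamini-Hochberg adjustment over 15484 genes. A called gene had an adjusted p under 0.05 together with a change of more than 2-fold either way, the limits the authors used. Log2 CPM used a prior count of 2. The 4 comparisons of groups and the interaction were tested. The fit was first tested on simulated counts. DESeq2 1.42.0 and limma 3.58.1 on log2(FPKM + 1) were alternatives.

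Named genes were the 10 members, up to 3 called genes per list and direction by size in Model against Ctrl and in Model_Swim against Model, and the 8 genes of most like deviations; further list genes were named after their values were seen, to spell out small counts. Members and lists were chosen with earlier results of these data known. Standard errors are the absolute log2 fold change divided by the square root of the F statistic of the edgeR test. Intervals are 95%, use a t quantile on those standard errors, and cover the fitted spread between mice. Promoter windows (250 bases before each start) and positions came from RefSeq on GRCm38.p6, overlaps from GENCODE.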

Additional observations from a re-analysis of the deposited data

How the results depend on the processing

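The count of the 10 genes called in Model against Ctrl, 4, was 3 to 5 under 12 alternatives that left out no single mouse, and 7 by the adjusted p alone; leaving out 1 mouse gave 2 to 5. In Model_Swim against Ctrl_Swim it was 3 to 6 with the same alternatives except the replicate block, and leaving out 1 mouse gave 2 to 5. The counts of 0 for both swimming comparisons and the interaction stayed 0, except that without both high-acinar libraries 1 gene, Fosb, was called in Model_Swim against Model. DESeq2 called 5 and 5 in the AOM/DSS comparisons and 0 in the others.

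Same-numbered mice of different groups did not deviate together (median r 0.0046 over 15 pairs, 4 above 0.1), so the replicate numbers were not taken as pairs. With the replicate block, the AOM/DSS calls were 4 in Model against Ctrl and 1, Dusp1, in Model_Swim against Ctrl_Swim, where all genes called went from 155 to 18. The 4 were not those of the fit without the block: Fos lost its call (adjusted p = 0.0642) and Egr2 gained one (0.00880). In Model_Swim against Ctrl_Swim the adjusted p under the block was 0.213 for Fos, 0.0583 for Egr1 and 0.0744 for Atf3.

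Libraries also divided by reads of the pancreatic genes Ctrb1, Pnlip and Cela2a, with 235 counts or more in Ctrl 1 to 3, Ctrl_Swim 3 and Model 1 to 3 and 27 or fewer in the other 5. Model against Ctrl lies on the higher side, whereas Model_Swim and Model lie on opposite sides and cannot be told apart from it without the control mice. Only Ctrl_Swim has mice on both sides, so a term for the division rests on Ctrl_Swim 3 against Ctrl_Swim 2 and 4. Ctrl_Swim 3 was also the lowest library for Fosb, Egr1, Egr2 and Atf3. With the term, both swimming comparisons depend on that single mouse, so their values cannot decide a direction. With a term for this division, added after seeing the data, 4, 0, 0 and 3 of the 10 genes were called in Model against Ctrl, Model_Swim against Model, Ctrl_Swim against Ctrl and Model_Swim against Ctrl_Swim; the 3 were Egr1, Dusp1 and Jun, with Fos (adjusted p = 0.131) and Atf3 (0.0850) not called.

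Directions near 0 were not stable, and the cause was not tested. In Model_Swim against Model the log2 fold changes changed sign as follows. With the acinar genes as covariate they were 0.23 for Jun, -0.084 for Junb, -0.92 for Egr2, -0.10 for Ier2 and 0.24 for Ier3. Without both high-acinar libraries they were 0.13 for Jun, -0.28 for Egr2, -0.085 for Ier2 and 0.13 for Ier3. With the division term, which rests on Ctrl_Swim 3, they were 0.073 for Jun, -0.045 for Junb and -2.52 for Egr2. Ier3 was 0.083 or 0.092 by limma on log2 FPKM and 0.056 with the replicate block, and without the low-count filter Jun was 0.0015 and Ier3 0.0074. Fosb kept its direction there, at -2.12 with the acinar covariate and -1.06 to -0.13 without 1 mouse. With the division term Fosb was -1.81, a value that depends on Ctrl_Swim 3. Leaving out 1 mouse gave -0.46 to 0.064 for Fos, -0.12 to 0.14 for Jun, -0.0058 to 0.32 for Junb, -0.31 to 0.020 for Egr1, -0.80 to 0.54 for Egr2, -0.33 to 0.20 for Atf3, -0.088 to 0.052 for Ier2, -0.28 to 0.41 for Ier3 and -0.19 to 0.0078 for Dusp1. The higher end for Fos, Egr1, Atf3 and Dusp1 was the fit without Model 2.

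In Ctrl_Swim against Ctrl, Egr2 was -1.29 with the replicate block and -1.17 with the term that set Ctrl_Swim 4 apart. It ran from -1.16 to 1.54 without 1 mouse. With the division term, which rests on Ctrl_Swim 3, Egr2 was -1.19 and Ier3 was -0.016. Ier2 in Model against Ctrl ran from -0.15 to 0.00066 without 1 mouse. For the interaction, the acinar covariate gave -0.19 for Fos, -0.25 for Egr1, -0.038 for Atf3, 0.10 for Ier3 and -0.020 for Dusp1, and leaving out both high-acinar libraries gave -0.21 for Fos, -0.21 for Egr1, 0.056 for Ier3 and -0.014 for Dusp1. Egr1 was -0.050 or -0.043 by limma and -0.070 with the division term, and Egr2 was 1.30 with the replicate block and 1.36 with the term for Ctrl_Swim 4. Without 1 mouse the interaction ran from -0.24 to 0.51 for Fos, -0.73 to 0.22 for Fosb, -0.16 to 0.27 for Egr1, -1.86 to 1.34 for Egr2 and -0.37 to 0.33 for Ier3. Depth limits Egr2 most, with 7 counts in each of 2 mice.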
